A study of Mus musculus with 4 samples.

Results

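Abcc9, Gpc6, Smyd3 and Dolpp1 are 4 protein-coding genes at which a Tet1 chromatin immunoprecipitation (ChIP-seq) gave overlapping peaks in wild-type (WT) and in Tet1 knockout (KO) spermatogonia, the dividing germ cells from which sperm arise. They were selected on these peaks, out of 22 protein-coding genes with such a shared peak and 275 with any peak in either list. A shared peak here lay where the input was low and away from small RNA genes, and a gene was given every peak with its summit inside it or within 3 kb. The genes were chosen by pileup, fold and overlap, and these values are therefore given as a description, with no test.

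The cells came from testes of strain 129 mice, WT or with Tet1 knocked out, at 3 months of age, and were sorted by flow cytometry (20000 cells). The labels give no further allele, sort marker or number of animals. Each genotype had 1 Tet1 ChIP library and 1 input library, which was sequenced without antibody. Nothing was replicated, and all intervals below are 95% intervals that cover counting error only. The ChIP libraries were shallow, with 3081692 tags in WT and 2235818 in KO after duplicate removal, a depth ratio of 1.38. The loss of Tet1 protein in the KO cells and the labelled cell type could not be checked from peak lists, so a peak found in both lists is called shared here, not independent of Tet1.

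Tet1 is a dioxygenase that oxidises methylated cytosine in DNA, the first step of one route of demethylation, and in mouse embryonic stem cells it is found at CpG-rich promoters. The KO values are what the same antibody recovered in cells from the knockout mice, and they are given beside each WT value. The 4 genes have unrelated roles. Abcc9 encodes the sulfonylurea receptor that controls a class of potassium channels closed by ATP, which couple membrane potential to the energy state of the cell. Gpc6 encodes a glypican, a heparan sulfate proteoglycan held on the cell surface by a lipid anchor. Smyd3 encodes a lysine methyltransferase with SET and MYND domains. Dolpp1 encodes a dolichyl diphosphate phosphatase of the endoplasmic reticulum, which recycles the lipid carrier of N-linked glycans.

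The 4 genes held 4 WT peaks and 5 KO peaks, 1 of each at every gene except Smyd3, which had 2 KO peaks. Over all 21887 annotated protein-coding genes, 1.08% had a summit of the WT list and 0.379% one of the KO list inside or within 3 kb, and 0.101% lay at a shared peak of the kind used here. The WT list had 230 peaks of this low-input kind, 9.57% of them overlapped by one of the KO list. The KO list had 80, and 30% of these were overlapped in turn. All 9 peaks at the 4 genes were overlapped, which the choice of the genes fixed.

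Abcc9 had the highest fold enrichment over input of this kind of peak in both lists. The WT peak lay on chromosome 6 at 142662137 to 142662910 (mm10) and the KO peak at 142662189 to 142662874, entirely within it. The pileup, which counts the ChIP fragments that reach over the summit, was 28 tags in WT (interval 18.6 to 40.5) and 23 in KO (14.6 to 34.5). The level per 1000000 ChIP tags, the scale of every level below, was 9.09 in WT and 10.3 in KO, so that the KO level was the higher of the 2 after correction for depth, by less than the counting error. The deposited fold enrichment was 19.1 in WT and 18.9 in KO, and the −log10 q was 34.2 and 32.3. The summits were 170 bp apart, within 1 fragment length (299 bp in WT, 300 bp in KO).

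The Abcc9 peaks were far from the start of the gene. Abcc9 spans 142587862 to 142702766, and the RefSeq promoter table places it on the minus strand with its start at 142702274. The WT summit lay 39.8 kb and the KO summit 39.7 kb after that start, inside the gene, and no second peak lay within 1 Mb in either list. Whether the summits are exonic or intronic was not analysed here. The next gene, Kcnj8, which encodes a pore subunit that pairs with the Abcc9 product, had no peak.

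Gpc6 had the closest match in position between the genotypes among the 4 genes. The WT peak lay on chromosome 14 at 117932370 to 117932775 and was contained in the KO peak at 117932352 to 117932853, with summits 11 bp apart. The pileup was 18 tags in WT (10.7 to 28.4) and 15 in KO (8.40 to 24.7), a level of 5.84 and 6.71. The fold was 14.2 in WT and 10.01 in KO. The KO fold was the lower although the KO level was not. The local input differed between the genotypes. The fold also adds 1 tag to pileup and to local background, and so corrects for depth only in part. The part of each in the lower KO fold was not tested. In WT the background was at its genome-wide floor, and in KO it was 2.41 times the floor, which equals 1 scaled input tag. Gpc6 is 1054.6 kb long (116924920 to 117979529), longer than 99.8% of protein-coding genes, and the WT summit lay 46970 bp inside its high-coordinate end. Of the protein-coding genes at least as long as Abcc9 (114.9 kb), 2.13% had a peak in the WT list and 0.793% in the KO list. Many of these genes are far shorter than Gpc6, so the shares are not matched to its length.

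Smyd3 had the lowest fold of the 4 genes in both lists and the lowest WT pileup, and its peaks differed in shape between the genotypes. In WT there was a single peak on chromosome 1 at 179163134 to 179164518, and its 1385 bp made it the widest of the 230 WT peaks of this kind. In KO the same stretch was covered by a peak of 1157 bp at 179162859 to 179164015, the widest of the 80, and, after a gap of 183 bp, by a peak of 300 bp at 179164199 to 179164498. The pileup was 13 tags in WT (6.92 to 22.2) and 11 (5.49 to 19.7) and 7 (2.81 to 14.4) in KO. The levels were 4.22 in WT and 4.92 and 3.13 in KO, so that the WT level lay between the KO levels.

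The Smyd3 summits did not coincide. The WT summit lay 621 bp from the first KO summit and 694 bp from the second, more than 1 fragment length from each, and the first KO summit lay 58 bp outside the WT peak. The values compared at Smyd3 are thus taken over different bases. The fold was 7.49 in WT and 5.47 and 6.41 in KO. The KO peak with more tags had the lower fold, and its local input was 4.81 times the floor (2 scaled input tags) against 1 times at the other. By fold Smyd3 ranked 22 of 230 in WT, and its KO peaks ranked 48 and 22 of 80. The word strong is thus not borne out for Smyd3 in KO, where the first peak was below the median fold of 5.62 of its kind. Smyd3 spans 178951960 to 179518053, and the WT summit lay inside it, 354356 bp from its high-coordinate end.

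Dolpp1 was the only one of the 4 with its peaks at an outer end of the annotated gene, which is its start. Further starts inside the other genes were not examined. Of the 4, Dolpp1 also had the largest difference between the genotypes. The WT peak lay on chromosome 2 at 30391898 to 30392453 and the KO peak at 30391918 to 30392340, inside it. The pileup was 22 tags in WT (13.8 to 33.3) and 8 in KO (3.45 to 15.8), a level of 7.14 and 3.58. The fold was 17.1 in WT, the second highest of its kind, and 7.21 in KO, which ranked 12 of 80. The background was at its floor in both genotypes, which shows that the local input did not exceed the genome-wide value but not what it was. At equal signal per tag, 15.96 KO tags would match the 22 of WT.

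**Figure D1:**
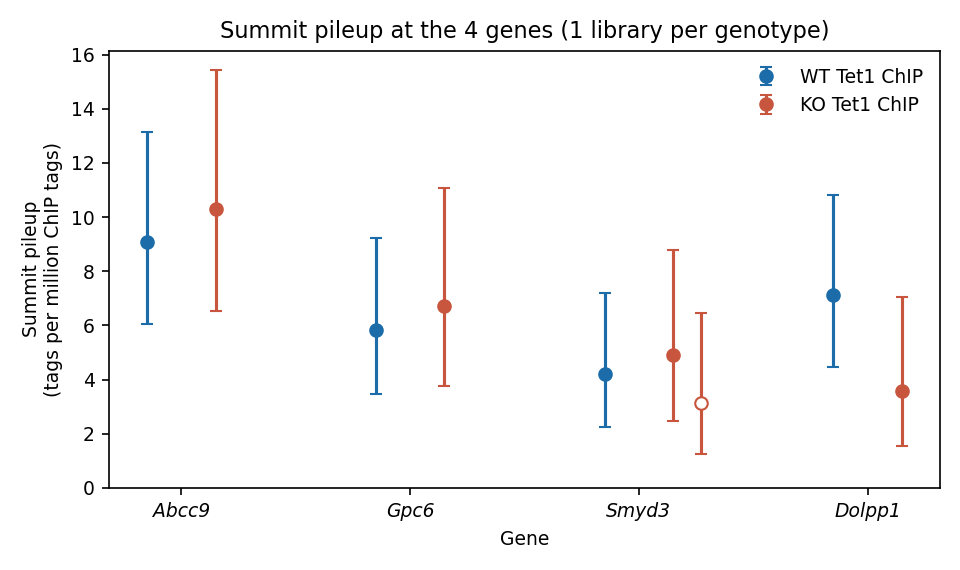
Summit pileup per 1000000 ChIP tags (y axis) at each gene (x axis) in the WT and the KO library, with exact Poisson 95% intervals as bars. The open point is the second KO peak of Smyd3. WT and KO intervals overlap at all 4 genes, and at Dolpp1 the KO point (3.58) lies below the WT interval.

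**Figure D2:**
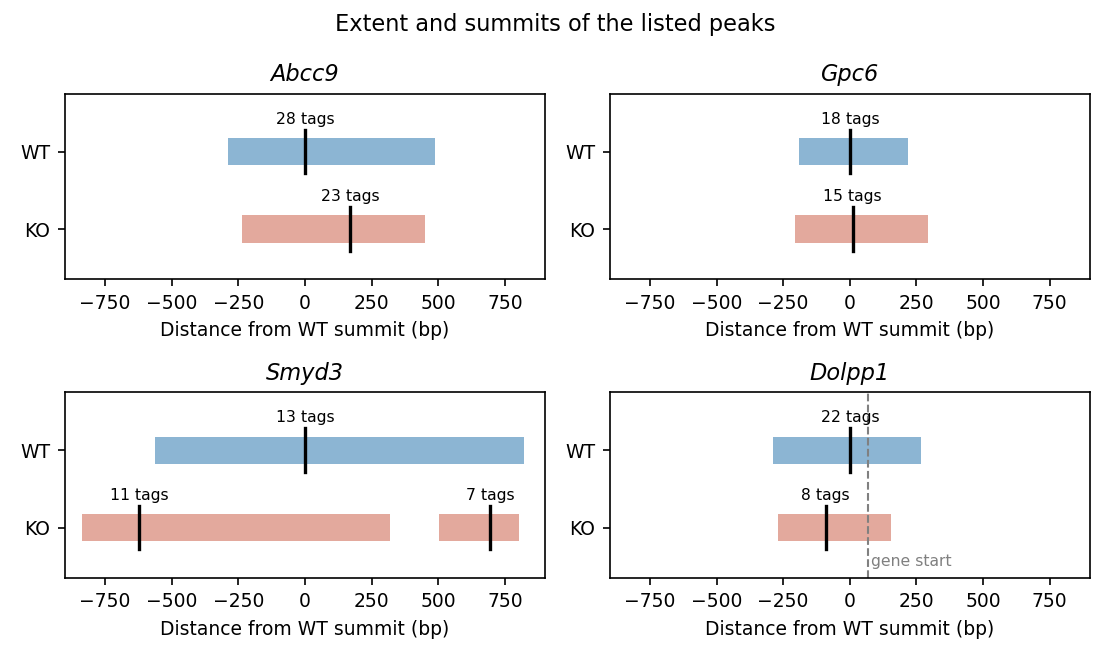
Extent of each listed peak (bars) and its summit (black lines) in bp from the WT summit of the same gene, with the summit pileup in tags. The peaks nearly coincide at Abcc9, Gpc6 and Dolpp1, while at Smyd3 the single WT peak faces 2 KO peaks.

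Dolpp1 spans 30392254 to 30400529 and is on the plus strand. The WT summit lay 68 bases and the KO summit 159 bases before its start, and the summits were 91 bp apart. The WT peak reached from 356 bases before the start to 199 after it, and the KO peak from 336 before to 86 after. Both covered the whole of the 250 bases before the start, which are shown because they carry both summits. In this RefSeq sequence (GRCm38.p6, chr2:30392004-30392253, plus strand) the capitals mark the letters of the CCAAT box, a common promoter element, here in its reverse complement ATTGG. The 2 promoters after it are the others overlapped by shared peaks that hold at least 3 such boxes, chosen after their matches were seen. They are Rmnd5a, which encodes a ubiquitin ligase subunit (chr6:71440638-71440887, minus strand), and Ube2c, which encodes a ubiquitin-conjugating enzyme of mitosis (chr2:164769679-164769928, plus strand). The shared peaks overlap the 250 bases of Rmnd5a only in part, and its box nearest the start lies outside both peaks.
Dolpp1: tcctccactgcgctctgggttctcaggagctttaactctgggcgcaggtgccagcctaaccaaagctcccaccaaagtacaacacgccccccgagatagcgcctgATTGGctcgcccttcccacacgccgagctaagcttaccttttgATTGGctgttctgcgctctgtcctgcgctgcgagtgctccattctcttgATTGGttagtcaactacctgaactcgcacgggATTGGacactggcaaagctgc
Rmnd5a: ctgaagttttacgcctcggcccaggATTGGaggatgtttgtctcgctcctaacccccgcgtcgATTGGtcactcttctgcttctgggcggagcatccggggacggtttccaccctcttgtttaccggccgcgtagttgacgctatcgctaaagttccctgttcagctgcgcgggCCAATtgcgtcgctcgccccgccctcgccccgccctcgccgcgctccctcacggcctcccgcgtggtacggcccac
Ube2c: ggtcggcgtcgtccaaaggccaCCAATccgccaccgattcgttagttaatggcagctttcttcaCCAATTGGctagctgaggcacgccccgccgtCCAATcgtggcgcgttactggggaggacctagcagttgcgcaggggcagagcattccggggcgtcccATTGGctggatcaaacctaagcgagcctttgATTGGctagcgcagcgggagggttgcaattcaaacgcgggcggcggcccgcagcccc

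The Dolpp1 promoter held 4 CCAAT boxes, all in the same orientation. They began 145, 102, 53 and 21 bases before the start, and their centres lay at -75, -32, 17 and 49 bp from the WT summit, counted positive towards the gene. All 4 lay on the gene side of the KO summit, with centres 16 to 140 bp from it. Over all 32851 promoters in the table, searched on both strands over the same 250 bases with overlapping matches counted, 33.9% held at least 1 CCAAT box and 0.840% at least 4. Among the 10362 promoters with at least as many CG dinucleotides as Dolpp1 (13), these shares were 32.2% and 1.31%. The Dolpp1 promoter had none of the other motifs searched on both strands. They were GGGCGG, found in 32.7% of all promoters and 73.5% of those with at least as many CG dinucleotides, the E-box CACGTG, found in 6.02% and 9.74%, and the TATA-type box TATAAA, found in 12.4% and 3.47%. These are matches of letters, and no binding of a factor was measured.

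Other promoters under shared peaks held between 0 and 6 CCAAT boxes. Only 6 promoters were overlapped by low-input peaks of both lists, those of Dolpp1, Magohb, Polr2i, Rmnd5a, Snrnp70 and Ube2c. Ube2c held 6 CCAAT boxes, of which 1 pair overlaps, Rmnd5a held 3, Polr2i 2, Magohb 1 and Snrnp70 none. Of all promoters, 10.1% held at least 2 and 2.79% at least 3. Among promoters with at least as many CG dinucleotides as Dolpp1, these shares were 12.15% and 4.04%. The median number of CG dinucleotides was 21 in these 6 promoters, 6 in all promoters and 10 in those of protein-coding genes. Base composition thus differed together with the boxes, and its part was not tested beyond the stratum above.

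**Figure D3:**
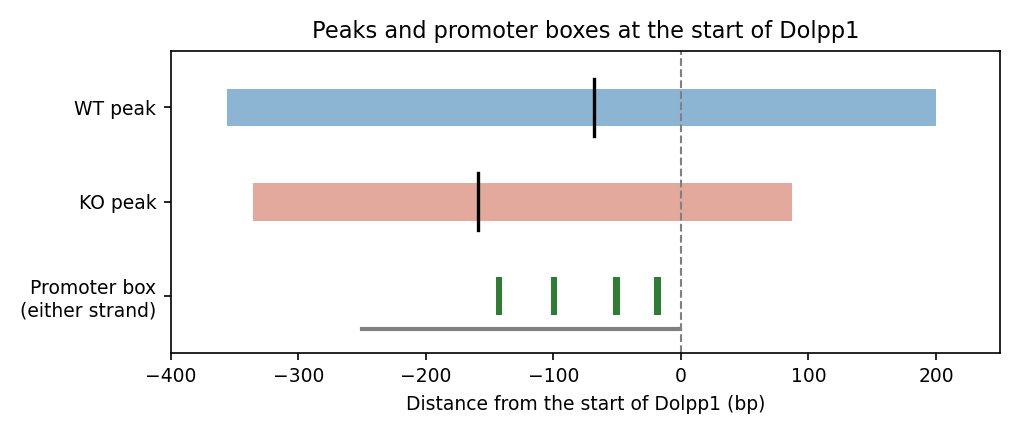
WT and KO peaks (bars, summits as black lines) and the 4 CCAAT boxes (green) by distance in bp from the start of Dolpp1, which is the dashed line. The grey line marks the 250 bases searched. Each box lies under both peaks, and the WT summit falls between the second and the third box counted from the left.

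The ratio of the WT to the KO pileup, divided by the depth ratio of 1.38, was below 1 at Abcc9 and Gpc6, on either side of 1 at Smyd3 and highest at Dolpp1. It was 0.883 (0.491 to 1.61) at Abcc9, 0.871 (0.414 to 1.86) at Gpc6, and 0.857 (0.354 to 2.11) at Smyd3 with the first KO peak or 1.35 (0.4996 to 3.99) with the second. At Dolpp1 it was 1.995 (0.855 to 5.18). Every interval held 1. Read the other way, the KO level was 113% of WT at Abcc9 (62.3 to 204), 115% at Gpc6 (53.9 to 241), 117% (47.3 to 282) at the first and 74.2% (25.1 to 200.2) at the second KO peak of Smyd3, and 50.1% at Dolpp1 (19.3 to 117). At Abcc9, the best counted of the 4, the data thus leave room for a KO level as low as 62.3% of WT, and at Dolpp1 for one as low as 19.3%. An interval that holds 1 does not show that the genotypes were alike. The ratio of the deposited folds, 1.01 at Abcc9, 1.41 at Gpc6, 1.37 at Smyd3 and 2.38 at Dolpp1, lay above 1 at all 4 genes. The fold adds 1 tag to pileup and to a small local background, so it corrects for depth only in part. Its ratio therefore leans towards the deeper WT library and is not an equal measure of direction. With the background subtracted, the depth-corrected pileup ratio was 0.877 at Abcc9, 0.8896 at Gpc6, 0.898 at Smyd3 (first KO peak) and 2.03 at Dolpp1.

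**Figure D4:**
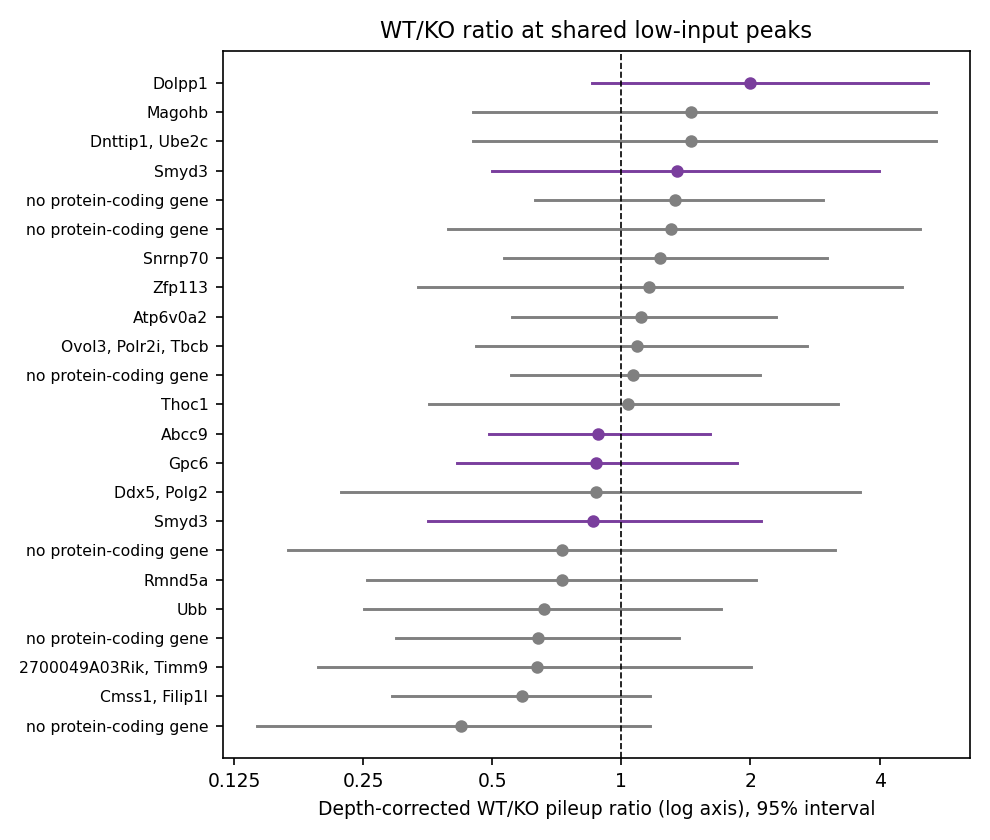
Depth-corrected WT/KO pileup ratio (log x axis) with exact conditional 95% intervals for the 23 overlapping pairs of low-input peaks away from small RNA genes, by the protein-coding genes at the WT summit. Pairs at the 4 genes are purple. All 23 intervals cross the dashed line at 1, and Dolpp1 has the highest ratio.

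Every pair had to pass the peak caller in both libraries, so peaks listed in 1 genotype are not among the 23 pairs. Dolpp1 had the highest ratio of the 23 pairs, above the 1.45 of Magohb and Ube2c, which were the highest of the others.

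Set against the other shared peaks, Abcc9 had the highest fold in both genotypes. Dolpp1 and Gpc6 ranked 2 and 3 of the 230 WT peaks by fold, and 12 and 5 of the 80 KO peaks. Ordered by the lower of the WT and KO folds, Abcc9 ranked 1 (18.9), Gpc6 2 (10.01), Dolpp1 6 (7.21) and Smyd3 10 (6.41, with its second KO peak) and 15 (5.47) of the 23 pairs. The protein-coding genes most like them by this measure were Ubb, Snrnp70 and Atp6v0a2. Ubb, a polyubiquitin gene, had 10 WT and 11 KO tags (folds 7.92 and 8.72). Snrnp70, which encodes a protein of the U1 spliceosomal particle, had 17 and 10 (9.63 and 7.89). Atp6v0a2, which encodes a proton pump subunit, had 23 and 15 (6.65 and 7.29), with an input 7.64 and 4.81 times the floor. By the lower fold, 3 pairs outside the 4 genes, Ubb and Snrnp70 among them, exceeded Dolpp1, and 6 exceeded the higher Smyd3 pair. The 4 genes are therefore not the 4 strongest shared peaks by every measure. Other pairs ranged from 4.47 to 10.4 in WT fold and from 4.42 to 10.5 in KO fold.

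**Figure D5:**
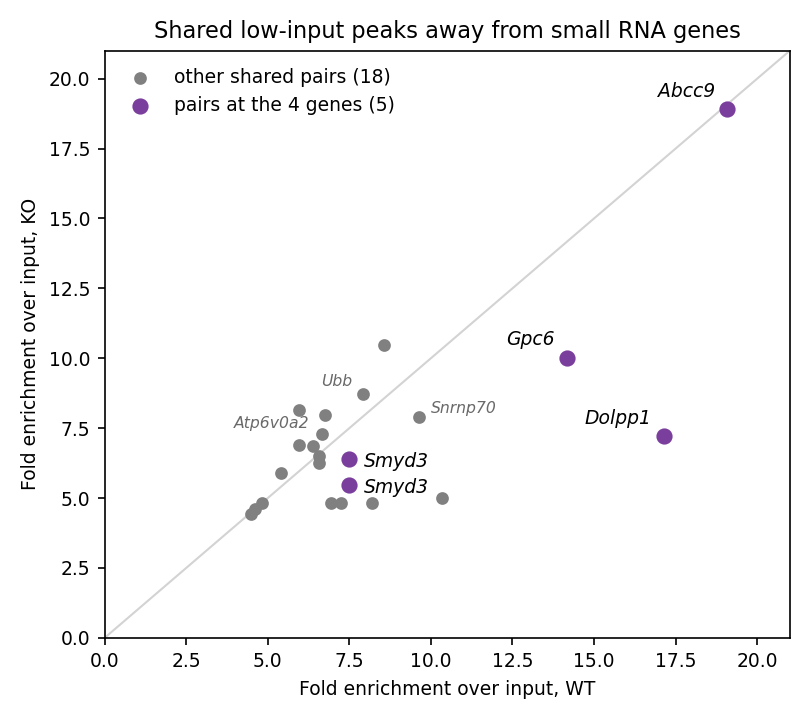
Deposited fold enrichment over input in WT (x axis) and KO (y axis) for the 23 pairs of shared low-input peaks, with the line of equal folds in grey. Abcc9 lies on the line at the top right, Dolpp1 far below it, and the Smyd3 pairs among the other genes.

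By pileup alone the order changed. Abcc9 ranked 1 of 230 in WT and 2 of 80 in KO, Dolpp1 5 and 21, Gpc6 11 and 8, and Smyd3 23 and 13 for its first KO peak. The median pileup of these kinds of peak was 6 tags in WT and 7 in KO, so all 4 genes exceeded it in WT. In KO the second Smyd3 peak equalled it. The local input at the 9 peaks ran from 1 to 4.81 times the floor, under the limit of 10 that defined low input. The nearest pair to that limit was at Cmss1 and Filip1l, with 9.63 times in KO. The nearest small RNA gene to any of the 9 summits was 156955 bp away, at Gpc6, against the limit of 500 bp. At most 598 tags could be kept over 1 base in WT and 600 in KO with 1 tag per position and strand, far more than any of these pileups.

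Genes related to the 4 had few peaks, a count near the background. Of 60 other genes of ATP-sensitive potassium channels and ABCC transporters (11), glypicans and heparan sulfate synthesis (14), SMYD and other SET methyltransferases (11) and the dolichol cycle (24), the WT list had a peak at 1 and the KO list at 0. The 1 was Gpc2, a glypican gene, at a peak shared with Stag3 (chromosome 5, 138282636 to 138283079, 6 tags, interval 2.20 to 13.1, fold 4.69) that no KO peak overlapped. At 1.08% and 0.379% of protein-coding genes with a peak, these counts say nothing particular to the families.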

How the data were processed

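Chromatin from sorted mouse spermatogonia was immunoprecipitated with a Tet1 antibody, with 1 ChIP and 1 input library for each of 2 genotypes. The build was mm10 and the tools were MACS2, deepTools, SAMtools, Bowtie2 and Trim Galore, per the submitters' processing notes. Per the file headers, MACS 2.1.1.20160309 compared each ChIP library with its own genotype's input, with a q cutoff of 0.5, the human genome size preset (2.70e+09), 1 tag kept per position and strand, and the input scaled to the ChIP (0.869 in WT, 0.598 in KO). The lists held 373 WT and 247 KO peaks. The deposited pileup is a signal in tags at the summit, the deposited fold is the ratio of pileup plus 1 to local background plus 1, and the deposited −log10 p and q values are the caller's. All these scores are the authors'.

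The local background was recovered here from pileup and fold. Its lowest value, 0.341 tags in WT and 0.248 in KO, is the floor named in the text and equals the genome-wide value the headers imply. Low-input peaks lie on chromosomes 1 to 19, X and Y with a background under 10 times the floor, and those used here have no gene for tRNA, snRNA, scRNA, rRNA, Y RNA or RNase P or MRP RNA within 500 bp of the summit. Genes and promoters are RefSeq's of GRCm38.p6, which has the mm10 coordinates. Promoters were found for Abcc9 and Dolpp1. Peaks overlap when they share 1 bp. Pileups have exact Poisson intervals and ratios exact conditional (Clopper-Pearson) intervals, computed with SciPy 1.17.1 in Python 3.11.15. The ratio intervals were tested only on simulated independent counts, drawn without any choice of summits or genes. No test compares the genotypes. The choice of summits and genes, PCR duplicates and clustered tags are not covered by the intervals. Named genes were the 4 genes, related genes with a peak and the 3 protein-coding genes next by the lower of both folds. Other names were chosen with values in view. The genes, lists and limits were chosen with earlier results of these data known.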

Additional observations from a re-analysis of the deposited data

How the results depend on the processing

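No paired analysis was possible because each genotype had 1 ChIP library and no replicate numbers. For the same reason no replicate could be left out. Of 41 alternative values, 38 stayed within the interval of the value or within 1.5 times the count. This is no measure of robustness. The ratio alternatives reuse the same few tags, whose counting intervals are wide. The counts of peaks and overlaps were largely fixed by the choice of the genes. A ratio that crossed 1 still counted as staying, as with the ratio of folds at Gpc6 (0.871 to 1.41) and Smyd3 (0.857 to 1.37). The 3 values that moved were these. With a −log10 q of at least 5 the KO list kept 3 of its 5 peaks at the 4 genes, since both at Smyd3 fell out. With summits required to lie within 100 bp, 2 of the 4 genes (Gpc6 and Dolpp1) shared a peak. The median WT rank of the 4 genes was 2.5 by fold and 8 by pileup. With the depth taken from the other shared low-input peaks, the WT/KO ratio was 0.969 at Abcc9 and 2.19 at Dolpp1. The second KO peak of Smyd3 was added as an alternative after seeing the data, and gave 1.35. Depth limits all values: 1 tag is a level of 0.324 per 1000000 in WT and 0.447 in KO.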

Other observations

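The CCAAT boxes of Dolpp1 were also frequent in the wider set of promoters under low-input peaks. Of the 57 other promoters overlapped by a WT peak, 66.7% held at least 1 box in the 250 bases before the start and 14.0% at least 4. These shares were 33.9% and 0.840% of all promoters and 35.4% and 1.02% of those of protein-coding genes. Among promoters with at least as many CG dinucleotides as Dolpp1 they were 32.2% and 1.31%. Of the 15 other promoters overlapped by a KO peak, 53.3% held at least 1 and 13.3% at least 4. The motif GGGCGG was held by 54.4% of the 57 and 53.3% of the 15. It was held by 32.7% of all promoters and 42.6% of those of protein-coding genes. Among promoters with at least as many CG dinucleotides as Dolpp1, 73.5% held it. These shares are a description of 1 library each, and neighbouring promoters can lie under the same peak. The 57 and the 15 are not separate sets, since 5 promoters are in both. The median number of CG dinucleotides was 17 under WT peaks and 18 under KO peaks. It was 6 in all promoters and 10 in those of protein-coding genes. A WT low-input peak overlapped 0.177% of all promoters by at least 1 bp, and a KO one 0.0487%.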
